A study of Mus musculus with 2 samples.

Results

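The 120 array spots described here, of 7264 under tissue, carried the highest joint level of Six3, Pvalb and Gad1 in the lower part of 2 coronal mouse brain sections. They are called the Six3-Pvalb-Gad1 spots, and their working label was reticular thalamus. In each section, spots with at least 500 UMIs and an array row of 25 or more were ranked by the mean, over the 3 genes, of ln(1 + 10000 × UMIs of the gene / UMIs of the spot), and the 60 highest were taken. A UMI is a molecular barcode that counts 1 captured RNA molecule, and the Visium array captures polyadenylated RNA at barcoded spots that each cover several cells or parts of cells. One section came from each mouse. Mouse 1 carried the genotype label WT:C57BL/6J control and mouse 2 WT:CRISPR-Cas9 edited isogenic control. Both expressed hM3Dq, an engineered receptor that the drug CNO switches on, and both had been given CNO. No untreated section was used, so each comparison is between places in treated brains. Brains were fresh frozen and trimmed at their lateral edges to fit a capture area 6.5 mm wide, and the 10 µm sections were taken 1.9 mm behind bregma. The receptor was delivered at 4.6 mm posterior to bregma, on a side that the labels do not tie to a side of the image.

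The reticular thalamic nucleus is a thin shell of inhibitory neurons that wraps the lateral face of the thalamus. Its cells receive branches of the axons that pass between thalamus and cortex, and they release GABA onto the excitatory relay neurons of the thalamus rather than sending axons to cortex. They are known for parvalbumin, for bursts of spikes carried by T-type calcium channels, for electrical coupling, and for their part in sleep spindles.

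The Six3-Pvalb-Gad1 spots formed thin lateral arcs. In mouse 1 they made up 2 connected groups of 33 and 27 spots, and in mouse 2 groups of 29 and 28 with 3 isolated spots. One group stood on each side of the section, between array rows 38 and 56 in mouse 1 and 40 and 56 in mouse 2. The median spot was 23.5 spot pitches from the midline in both mice, where a pitch is the distance between neighbouring spot centres. The image-left side held 27 and 30 spots in mouse 1 and mouse 2, and the image-right side 33 and 30. Position entered the rule only through the row limit, so the paired arcs were not set by it. The listed reticular markers are described below with the exceptions Ecel1, Ptchd1 and Lhx1. They were listed with results of these data known, so they are not an independent check of the label.

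**Figure D1:**
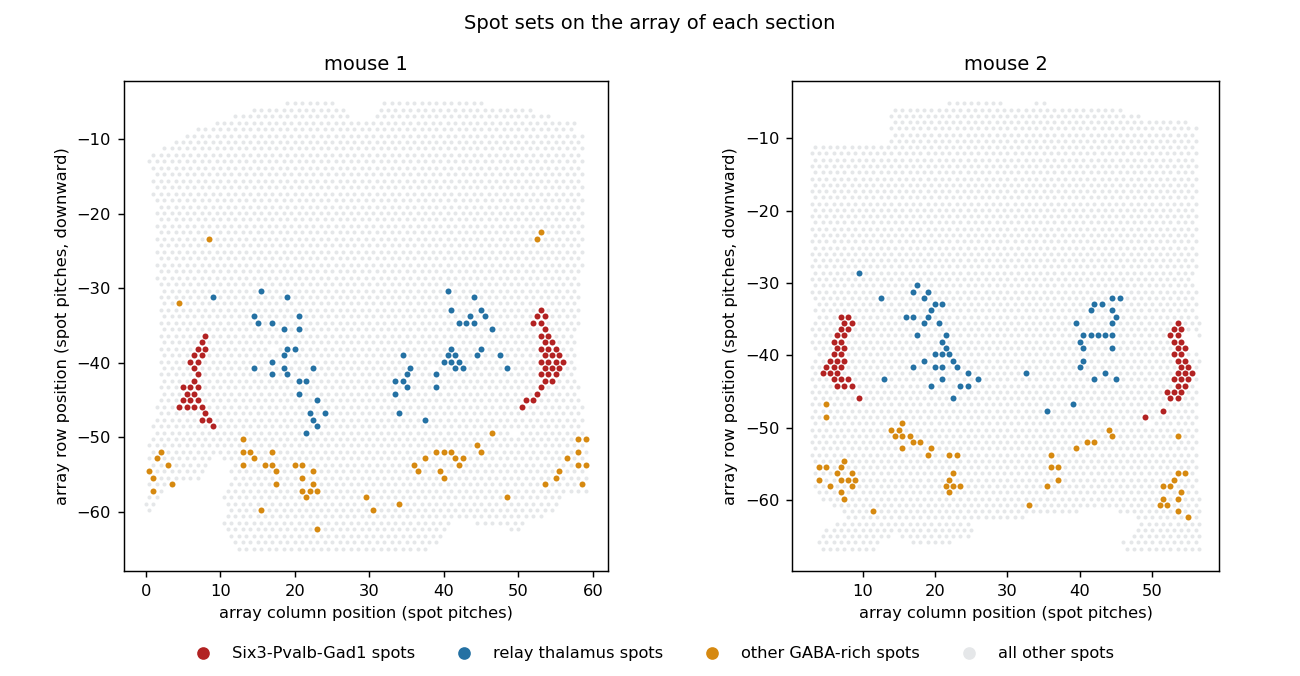
Position of each spot on the array of mouse 1 and mouse 2, in spot pitches, with the Six3-Pvalb-Gad1 spots, 60 relay thalamus spots, 60 other GABA-rich spots and all other spots of each section in different colours. The Six3-Pvalb-Gad1 spots form 1 arc at each lateral edge, a median of 23.5 pitches from the midline, with the relay thalamus spots between the arcs.

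Scores at the edge of the rule were close together. The 60th spot scored 2.49 in mouse 1 and 2.28141 in mouse 2, and the 61st, left out, scored 2.45 and 2.27767. The highest scores were 3.39 and 3.19, and the median over eligible spots was 0.429 and 0.475. Six3 had 421 and 421 CPM (UMIs of the gene for each 1000000 UMIs summed over a spot set, with mouse 1 before mouse 2 throughout) in the chosen spots, against 10.2 and 8.03 CPM in all other spots. Pvalb stood at 4747 and 4141 CPM, against 293 and 235 CPM in all other spots, and Gad1 at 2387 and 2140 CPM, against 145 and 155. These levels chose the spots and are given without a test.

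The summed depth of the chosen spots was 801140 and 1128475 UMIs. Their median depth was 13011.5 and 18359 UMIs per spot, against 10914 and 22285.5 in the relay thalamus spots, 7026 and 11987.5 in the other GABA-rich spots and 7494 and 14601 in all other spots. Mitochondrial genes took 17.5% and 19.2% of the UMIs of the chosen spots and 13.2% and 15.3% of those of all other spots. The sections share 3369 array barcodes under tissue and 31 among the chosen spots, since the barcodes are those of array positions and not of cells.

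Each rule gene was then tested in spots chosen by the other 2 genes alone, which picked 56 to 59 of the same 60 spots. Six3, a homeobox transcription factor of the ventral and rostral forebrain, had 411 and 413 CPM there, against 10.7 and 8.21 CPM in all other spots (log2 fold change 5.59 ± 0.10 SE, 48.2-fold). Pvalb, the calcium buffer parvalbumin, had 4570.5 and 4123 CPM in its own such spots, against 296 and 236 CPM elsewhere, 17.7-fold. Gad1, which makes GABA from glutamate, had 2355 and 2143 CPM, against 147 and 155 CPM, 16.1-fold. All 3 passed the threshold: edgeR's quasi-likelihood test on UMIs summed per mouse, with Benjamini-Hochberg adjustment at 0.05. The same test stands behind each "rose" and "fell" below. The spots were picked by levels in these same sections, so genes that follow the 3 rule genes from spot to spot had to differ, and the tests describe the picked spots. With 2 mice and 1 residual degree of freedom, its p-values and SEs come from a spread shared among genes.

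Upstream sequence of genes that mark the spots is shown for Six3, the rule gene with the largest fold over all other spots. It is also shown for Spp1, Trh and Sst, which encode secreted products, were not used by the rule and lead the results below. Each line is the RefSeq window from 250 bases before to 50 after a transcription start on GRCm38.p6, read 5′ to 3′ on the gene's strand. Six3 is at chr17:85620584-85620883 (plus strand), Spp1 at chr5:104434861-104435160 (plus strand, the first of 2 listed starts), Trh at chr6:92244601-92244900 (minus strand) and Sst at chr16:23890795-23891094 (minus strand). Capitals mark matches, on either strand, to short promoter motifs. The element near many start sites was searched as TATAAA. The box that binds the factor NF-Y was searched as CCAAT. The GC box was searched as GGGCGG. The cyclic AMP response element was searched as TGACGTCA.
Six3: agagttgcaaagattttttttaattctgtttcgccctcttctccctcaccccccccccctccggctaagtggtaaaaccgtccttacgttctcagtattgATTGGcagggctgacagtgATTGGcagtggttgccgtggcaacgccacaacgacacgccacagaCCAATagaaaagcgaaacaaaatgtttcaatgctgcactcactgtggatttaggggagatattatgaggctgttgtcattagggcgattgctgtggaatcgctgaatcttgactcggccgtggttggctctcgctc
Spp1: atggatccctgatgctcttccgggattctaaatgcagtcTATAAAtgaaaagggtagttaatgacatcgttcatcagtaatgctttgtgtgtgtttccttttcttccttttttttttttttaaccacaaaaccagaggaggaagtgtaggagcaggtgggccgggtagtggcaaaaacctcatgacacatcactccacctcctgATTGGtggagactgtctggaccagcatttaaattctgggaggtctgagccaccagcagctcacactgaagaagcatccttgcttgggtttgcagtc
Trh: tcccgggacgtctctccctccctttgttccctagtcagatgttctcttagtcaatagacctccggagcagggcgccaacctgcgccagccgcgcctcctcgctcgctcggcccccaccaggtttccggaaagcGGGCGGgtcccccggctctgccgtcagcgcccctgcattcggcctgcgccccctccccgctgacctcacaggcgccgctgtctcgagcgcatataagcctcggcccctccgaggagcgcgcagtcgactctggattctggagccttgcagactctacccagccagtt
Sst: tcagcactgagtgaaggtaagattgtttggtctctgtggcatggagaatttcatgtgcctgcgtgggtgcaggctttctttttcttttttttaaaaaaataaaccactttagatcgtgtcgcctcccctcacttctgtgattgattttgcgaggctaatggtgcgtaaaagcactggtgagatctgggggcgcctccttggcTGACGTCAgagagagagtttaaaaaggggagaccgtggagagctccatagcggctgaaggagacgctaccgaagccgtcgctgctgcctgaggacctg
The Six3 window holds 3 CCAAT matches, the Spp1 window 1 TATAAA match and 1 CCAAT match, the Trh window 1 GC box and the Sst window 1 cyclic AMP response element, which starts 48 bases before the start site. Among 32851 promoter windows of the same length, CCAAT is present in 37.4%, GGGCGG in 35.7%, TATAAA in 13.6% and TGACGTCA in 1.79%. The matches describe the letters and are not evidence of binding.

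Against all other spots, the Six3-Pvalb-Gad1 spots were marked by inhibitory neuron genes, a small group of secreted products and a distinct set of ion channels. They were low in genes of excitatory cortex, hippocampus, hypothalamus and relay thalamus. Of 15072 genes tested, 1374 rose (9.12%) and 1644 fell (10.9%), with 337 (2.24%) and 931 (6.18%) at least 2-fold. The median log2 fold change over all genes tested was -0.07, or -0.03 with genes at 0 UMIs in 1 set placed at their bound. In sums of this kind, fewer cells of a type cannot be told apart from less RNA per cell.

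The genes of GABA neurons came first. Gad2, the second GABA-synthesising enzyme, had 618 and 583 CPM in the Six3-Pvalb-Gad1 spots, against 100.2 and 103 CPM in all other spots, a log2 fold change of 2.67 ± 0.07. Slc32a1, which loads GABA into synaptic vesicles, had 279.6 and 319 CPM, against 48.3 and 59.6 CPM. Both genes followed the mean score of the rule genes over all used spots (mean Pearson correlation 0.34 and 0.33). Their rises thus describe the picked spots. Of the 10 listed GABA neuron genes, 5 rose and 0 fell, with a list median of 1.22. The homeobox genes Dlx6 (2.69 ± 0.33) and Dlx1 (1.47 ± 0.40) and the GABA transaminase Abat (0.84 ± 0.09) were the other rises.

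Of 20 listed genes known from the reticular thalamus, 19 were tested, 17 rose and 0 fell, and the list median was 2.003, beside -0.07 over all genes. Lhx1 was at 0 UMIs in the chosen spots and was too low to test. Ecel1, an endopeptidase known from reticular neurons, had 7.49 and 17.7 CPM, against 12.5 and 10.2 CPM (adjusted p = 0.471 in edgeR). The mice disagreed on its direction, and its log2 value was -0.83 in the 30 top-scoring spots per section and 0.81, past the threshold, in the 100 top-scoring spots. Ptchd1, a gene linked to attention and learning through the reticular nucleus of mice, had 3.74 and 3.54 CPM, against 0.837 and 1.03 CPM, and its edgeR adjusted p was 0.0967. The list was drawn up with results of these data known, so its counts are not independent evidence of the label.

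Spp1 and Trh, which encode secreted products, were among the largest rises. Spp1, which encodes osteopontin, a secreted phosphoprotein of bone that is also made by some large neurons, had 443 and 275 CPM in the Six3-Pvalb-Gad1 spots, against 13.5 and 8.86 CPM in all other spots. That 34.5-fold rise (5.11 ± 0.11) was the largest among genes with a mean of at least 20 CPM in the chosen spots, the rule genes left out. Trh, thyrotropin-releasing hormone, had 91.1 and 157 CPM, against 6.03 and 7.07 CPM, 21.0-fold. Spp1 was higher in mouse 1 and Trh in mouse 2, and each of these values was far above both values of all other spots.

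Somatostatin (Sst), an inhibitory peptide of many interneurons and of reticular cells, had 622 and 513 CPM, against 222 and 249 CPM, 2.58-fold. Pnoc, the precursor of nociceptin, had 54.9 and 45.2 CPM, against 18.3 and 21.5 CPM, 2.66-fold. Npy, neuropeptide Y, rose by 0.72 ± 0.10 on the log2 scale, with 232 and 117 CPM, against 115 and 105 CPM. The Npy rise was mostly in mouse 1, and its SE, from a spread shared among genes, does not measure this difference between the mice. Sst, Pnoc and Npy, with Spp1 and Trh, made 5 rises among the 15 genes of the neuropeptide list, and the other 10 fell. That list includes the phosphoprotein gene Spp1. Among the falls, Tac1 (substance P) had 4.99 and 1.77 CPM, against 42.4 and 37.1 CPM, and Penk (enkephalin) 6.24 and 5.32 CPM, against 27.0 and 33.6 CPM. Cck, cholecystokinin, fell by 1.41 on the log2 scale, with 332 and 366 CPM, against 986 and 1026 CPM. The list median was -2.54, or -2.31 with Crh, which had 0 UMIs, at its bound.

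**Figure D2:**
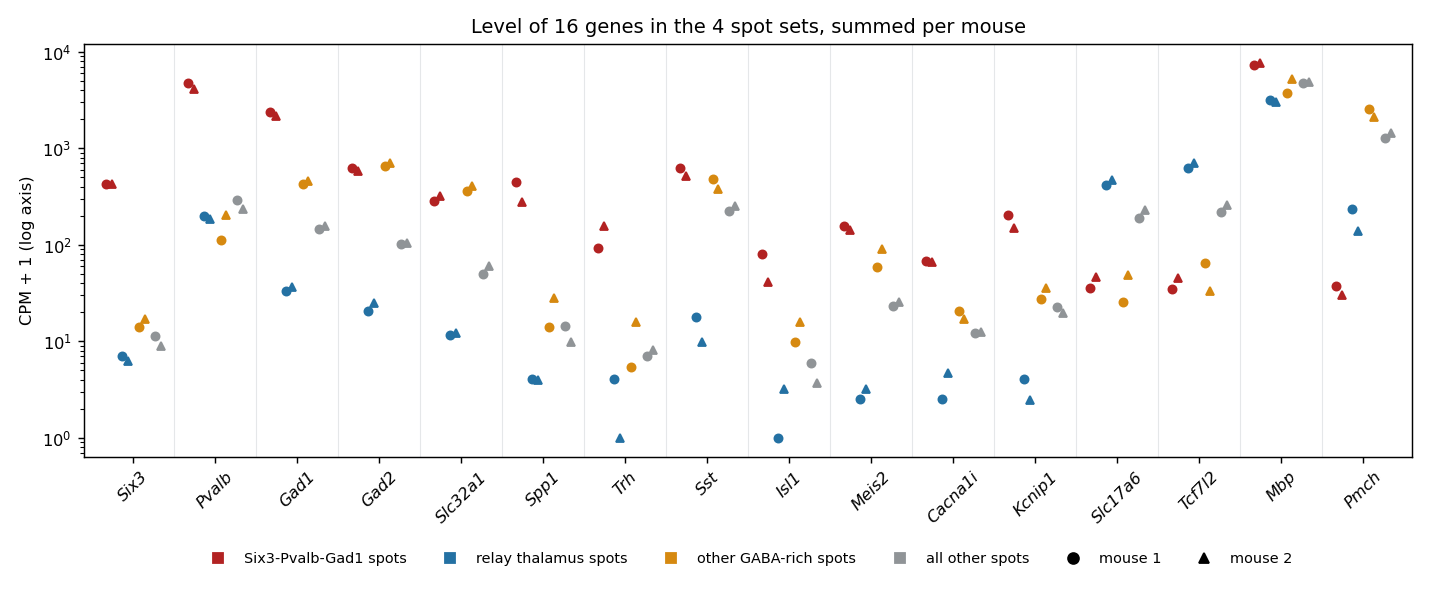
Level of 16 genes (CPM + 1, log axis) in the Six3-Pvalb-Gad1 spots, relay thalamus spots, other GABA-rich spots and all other spots, with a circle for mouse 1 and a triangle for mouse 2. Spp1, Trh, Isl1, Cacna1i and Kcnip1 are highest in the Six3-Pvalb-Gad1 spots of both mice, while Gad2 and Slc32a1 are higher in the other GABA-rich spots, which were picked by them.

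Further large rises fell outside the lists. Cckar, the cholecystokinin A receptor, had 31.2 and 29.2 CPM, against 1.04 and 1.11 CPM in all other spots, 30.0-fold. Pln, phospholamban, which restrains the calcium pump of the endoplasmic reticulum, had 76.1 and 74.4 CPM, against 2.91 and 2.58 CPM, 29.8-fold. Both genes were nearly level between the mice. Lgi2, a secreted leucine-rich protein of the family linked to epilepsy, had 382 and 359 CPM, against 25.4 and 26.1 CPM, 15.5-fold. Kcns3, a silent potassium channel subunit that modifies Kv2 channels, had 71.1 and 59.4 CPM, against 4.25 and 4.21 CPM, 16.5-fold. Lrrc38, an auxiliary subunit of large-conductance potassium channels, rose 21.6-fold, with 33.7 and 36.3 CPM, against 1.94 and 1.64 CPM. Frem3, an extracellular matrix protein, had 77.4 and 23.9 CPM, against 3.38 and 1.35 CPM. Mouse 1 stood well above mouse 2 for this gene, and the chosen spots of both stood above all other spots. Six3os1 had 36.2 and 34.6 CPM, against 2.21 and 1.72 CPM. Six3os1 (chr17, 85601932 to 85618396) overlaps Six3 (85613608 to 85626191) on the opposite strand in the gene records. The listed Six3 start, whose window is shown above, lies outside the overlap. The strand setting of the counting is not given in the sources used here. Whether reads of the rule gene were counted for Six3os1 was not tested.

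The largest falls were in genes of other forebrain fields. Spink8, a serine protease inhibitor of hippocampal pyramidal cells, had 0 UMIs in the chosen spots of both mice, against 29.2 and 32.2 CPM in all other spots, at least 20.0-fold lower with 3 counts over both mice as the floor. C1ql3, a secreted C1q-like synaptic protein, Cbln2, a cerebellin that bridges synapses, and Bcl11b, a transcription factor of deep cortical projection neurons, were also at 0 UMIs. They were at least 19.1-fold, 16.7-fold and 16.1-fold lower than in all other spots. For these 4 genes DESeq2 made no call. Neurod6, a transcription factor of cortical and hippocampal excitatory neurons, had 2 UMIs in the chosen spots, which gives a ratio of 59.8-fold (95% exact interval 16.5 to 494) between all other spots and the chosen spots. Pmch, the precursor of melanin-concentrating hormone of the lateral hypothalamus, had 36.2 and 29.2 CPM, against 1289 and 1425 CPM, and Hcrt, the orexin precursor, 17.5 and 4.43 CPM, against 549 and 249 CPM. Nwd2 had 1 UMI in the chosen spots, Tac2 (neurokinin B) 2 and Crym (mu-crystallin) 2. The ratios of all other spots to chosen spots were 60.6-fold (95% exact interval 10.9 to 2394) for Nwd2, 44.2-fold (95% exact interval 12.2 to 365) for Tac2 and 42.8-fold (95% exact interval 11.8 to 353) for Crym.

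Transcription factors of early forebrain patterning split. Of 30 listed, 28 were tested, 7 rose and 8 fell, with a median of -0.04 (0.10 with genes at 0 UMIs at their bound). Isl1, a LIM homeobox factor of ventral forebrain and motor neurons, had 78.6 and 39.9 CPM in the Six3-Pvalb-Gad1 spots, against 4.89 and 2.66 CPM in all other spots, 16.8-fold. Esrrg, an orphan nuclear receptor that drives genes of energy metabolism, had 119.8 and 161 CPM, against 12.4 and 16.04 CPM, 10.7-fold. Meis2 (2.76 ± 0.13), Nr2f2 (2.41 ± 0.11) and Sp8 (2.19 ± 0.67), factors of ventral forebrain and interneuron development, rose with Dlx6 and Dlx1. Nr2f1, the paralogue of Nr2f2, had 109 and 112 CPM, against 116 and 114 CPM, and did not pass the test. The LIM factors Lhx2 and Lhx9 fell by 2.51 and 2.59 on the log2 scale, and Zic1, with 30.0 and 50.5 CPM, against 119 and 145 CPM, fell by 1.56.

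Members of the T-type calcium channel family moved in opposite directions. T-type channels open at low voltage and carry the burst of thalamic neurons. Cacna1i, which encodes Cav3.3, had 67.4 and 65.6 CPM in the Six3-Pvalb-Gad1 spots, against 11.2 and 11.6 CPM in all other spots, 6.30-fold higher. Cacna1h (Cav3.2) had 38.7 and 25.7 CPM, against 8.91 and 12.0 CPM, 3.18-fold higher. Cacna1g (Cav3.1) had 20.0 and 25.7 CPM, against 65.1 and 74.9 CPM, 2.80-fold lower. Of all genes tested, 9.12% rose and 10.9% fell.

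The HCN channels, which carry the hyperpolarisation-activated current of pacing neurons, also split. Hcn2 rose, with 282 and 226 CPM, against 159 and 132 CPM. Hcn4 fell, with 2.50 and 7.09 CPM, against 14.0 and 18.3 CPM, and Hcn3 did not pass the test. Of 14 other calcium channel genes, 2 rose and 8 fell (median -0.87). The rises were Cacna2d2, an auxiliary subunit, at 46.2 and 52.3 CPM, against 17.9 and 22.7 CPM, and Cacng2, stargazin, which also carries AMPA receptors to the synapse, at 122 and 119 CPM, against 63.1 and 67.3 CPM. Cacna1e, the R-type channel, was among the falls at 1.25 and 3.54 CPM, against 32.3 and 40.8 CPM.

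Potassium channel genes moved both ways. Of 37 potassium channel genes tested, 12 rose and 16 fell, with a median of -0.18, the same with Kcnq5, which had 0 UMIs, at its bound. Kcnip1, a cytosolic partner of Kv4 channels, had 203 and 149.8 CPM in the Six3-Pvalb-Gad1 spots, against 21.6 and 18.7 CPM in all other spots, 9.37-fold. Kcnc1, the Kv3.1 channel that ends spikes quickly, rose, with 377 and 392 CPM, against 146 and 167 CPM. The same family's Kcnc2 and Kcnc4 fell, by 0.93 and 0.87 on the log2 scale. Kcnn2, the SK2 channel that calcium opens after T-type current in reticular cells, had 54.9 and 50.5 CPM, against 21.0 and 23.1 CPM, 2.56-fold.

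Other potassium channel rises were Kcns1 (2.13 ± 0.29), a silent subunit, Kcnh2 (2.09 ± 0.14), the ERG channel, Kcnab3 (1.89 ± 0.14), a beta subunit, and the leak channels Kcnk3 (1.55 ± 0.19) and Kcnk1 (1.24 ± 0.11). On the other side, Kcnip4, a relative of Kcnip1, had 9.99 and 17.7 CPM, against 109 and 124 CPM. Kcna4 (Kv1.4) had 0 and 4.43 CPM, against 16.4 and 19.7 CPM, and Kcnab1 16.2 and 15.1 CPM, against 83.5 and 95.1 CPM. Kcnq5, a subunit of the M-current, had 0 UMIs, against 13.7 and 14.9 CPM, at least 9.30-fold lower, a call that DESeq2 did not make.

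Sodium channels gave 3 rises and 6 falls among 12 genes (median -0.35). Scn4b, the beta 4 subunit that supports resurgent current, had 112 and 121 CPM in the Six3-Pvalb-Gad1 spots, against 31.7 and 34.4 CPM in all other spots, 3.81-fold. Scn1a, the Nav1.1 channel of inhibitory neurons, rose by a smaller amount, 0.49 ± 0.12. Scn2a, the Nav1.2 channel, had 16.2 and 22.2 CPM, against 91.7 and 110.0 CPM, and Scn3b 3.74 and 10.6 CPM, against 48.5 and 66.9 CPM.

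Transcripts for receiving GABA were low. Of 18 GABA receptor and scaffold genes tested, 1 rose and 13 fell, with a median of -1.02 (-0.85 with Gabre, at 0 UMIs, at its bound). The rise was Gabra3, the alpha 3 subunit known as the main alpha subunit of reticular synapses, with 43.7 and 44.3 CPM in the Six3-Pvalb-Gad1 spots, against 21.0 and 27.6 CPM in all other spots, 1.93-fold. The mice were nearly level in the chosen spots.

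Other alpha subunits fell. Gabra4 and Gabra2 fell by 1.70 and 0.85 on the log2 scale, and Gabra5, at 0 and 6.20 CPM, against 40.9 and 46.5 CPM, fell by 3.49, though DESeq2 did not call it. The beta 1 subunit Gabrb1 fell by 1.29, and the GABA-B subunits Gabbr1 and Gabbr2 by 0.48 and 1.32. Gphn, the gephyrin scaffold of inhibitory synapses, had 48.7 and 55.8 CPM, against 51.3 and 52.0 CPM, and did not pass the test.

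Glutamate receptors gave 3 rises and 9 falls among 17 ionotropic genes (median -0.71). The AMPA subunit Gria4, known at reticular inputs, rose by 0.62 ± 0.17, with 51.2 and 50.5 CPM in the Six3-Pvalb-Gad1 spots, against 35.3 and 36.2 CPM in all other spots. The kainate subunit Grik3 had 44.9 and 35.4 CPM, against 15.1 and 16.8 CPM, and the NMDA subunit Grin2c 72.4 and 67.3 CPM, against 44.2 and 43.5 CPM. Gria1 was 13.5-fold lower, with 6.24 and 14.2 CPM, against 137 and 175 CPM. Gria3 had 82.4 and 76.2 CPM, against 83.2 and 87.3 CPM, and did not pass the test. Gria2, Grin2a and Grin2b fell by 1.56, 1.37 and 1.58 on the log2 scale.

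Metabotropic glutamate receptors and their Homer scaffolds gave 1 rise, Grm3 (0.77 ± 0.24), and 5 falls among 10 genes (median -0.97). Grm5, a group I receptor, was among the falls, with 15.0 and 13.3 CPM in the chosen spots, against 70.9 and 76.0 CPM in all other spots. Of 11 acetylcholine genes tested, 2 rose and 5 fell (median -0.58). Chrm2, the M2 muscarinic receptor that quiets reticular cells, had 33.7 and 39.9 CPM, against 8.74 and 11.3 CPM, 3.96-fold. Chrna4, the nicotinic alpha 4 subunit, rose by 0.47 ± 0.16, while Chrm1 (M1) fell, with 2.50 and 1.77 CPM, against 21.8 and 27.7 CPM. Chrna3, Chrnb3 and Chrnb4 had 0 UMIs in the chosen spots, and the fall of each was lost under at least 1 alternative setting. Of 21 monoamine and peptide receptors tested, Cckbr, the cholecystokinin B receptor, was the 1 rise at 18.7 and 16.8 CPM, against 9.61 and 10.4 CPM, and 9 fell. Their median was -2.49, or -1.21 with genes at 0 UMIs at their bound.

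**Figure D3:**
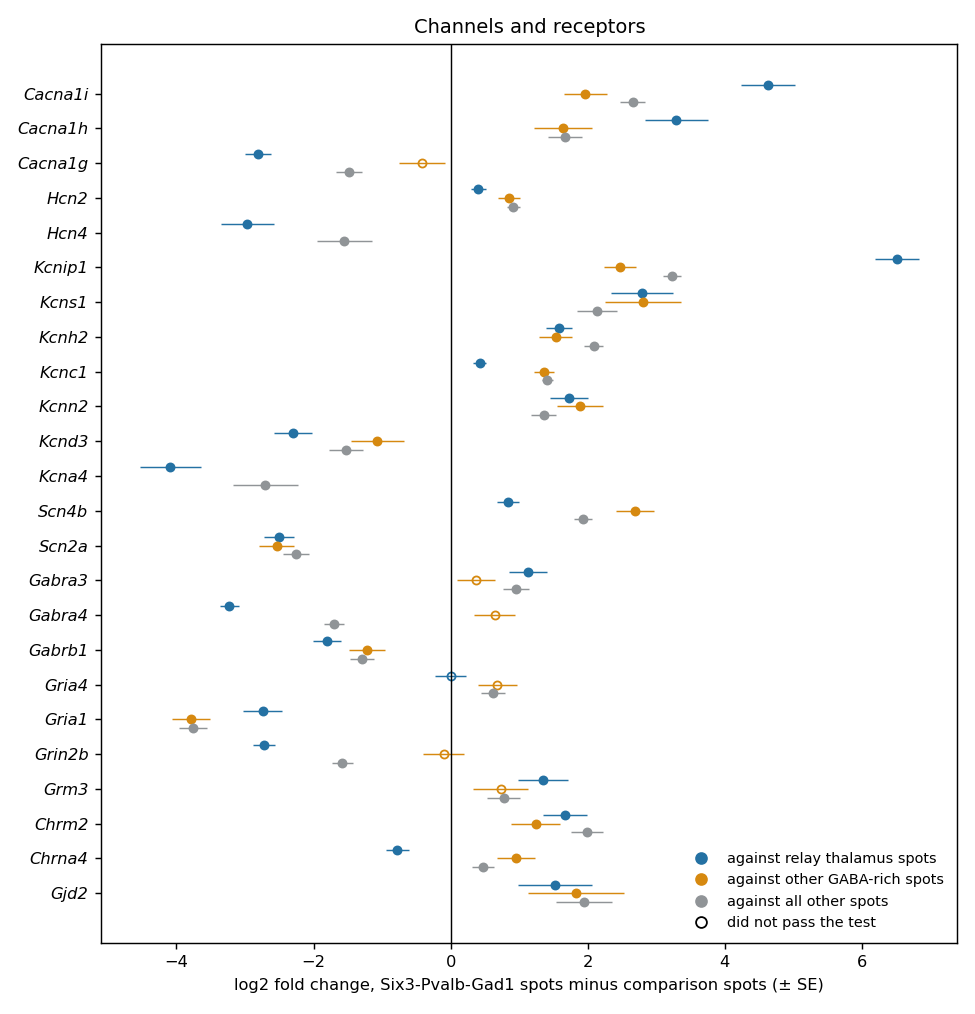
Fitted log2 fold change (± SE) of 24 channel and receptor genes in the Six3-Pvalb-Gad1 spots relative to relay thalamus spots, other GABA-rich spots and all other spots, with open circles where the test was not passed. Cacna1i, Kcnip1, Kcns1 and Kcnh2 lie to the right of 0 in every comparison, and Gria1 and Scn2a lie to the left.

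Electrical synapse genes were tested because reticular neurons are coupled by gap junctions. Gjd2, which encodes connexin 36, the main neuronal connexin, had 13.7 and 14.2 CPM in the Six3-Pvalb-Gad1 spots, against 3.85 and 3.97 CPM in all other spots, 3.87-fold. The 5 genes of the list gave 3 rises and 1 fall (median 0.64), the other rises being the scaffold Tjp1 (0.64 ± 0.18) and the pannexin Panx2 (0.77 ± 0.17). DESeq2 called Gjd2 alone among the 5. Gjc1, connexin 45, had 8.74 and 5.32 CPM, against 16.9 and 14.7 CPM, a fall lost under 4 alternative settings.

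Perineuronal nets are sheaths of matrix around fast-spiking neurons. Of 13 net genes tested, 6 rose and 2 fell (median 0.70). Acan, aggrecan, had 4.99 and 10.6 CPM in the chosen spots, against 1.94 and 1.53 CPM in all other spots. Hapln1 and Hapln4, link proteins that fix aggrecan to hyaluronan, rose. Hapln1 had 15.0 and 16.8 CPM, against 5.52 and 6.07 CPM, and Hapln4 209.7 and 154 CPM, against 60.03 and 58.2 CPM. The other rises were Hapln2 (0.63 ± 0.18), Bcan (0.70 ± 0.10) and Has3 (2.36 ± 0.87), and the last was lost under 3 alternative settings. Tnc, tenascin C, and Ptprz1, a receptor phosphatase, fell by 2.32 and 0.35 on the log2 scale, the first of which was lost in DESeq2 and in the 30 top-scoring spots.

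Axonal and release genes gave 9 rises and 4 falls among 16 (median 0.46). Syt2, a fast calcium sensor of transmitter release at parvalbumin synapses, had 151 and 126.7 CPM in the Six3-Pvalb-Gad1 spots, against 17.7 and 18.2 CPM in all other spots, 8.28-fold. Syt1, the sensor of most forebrain synapses, fell, with 423 and 394 CPM, against 571 and 594 CPM. The same division held for the vesicle proteins Vamp1 (1.77 ± 0.08) and Vamp2 (-0.52 ± 0.10) and for the complexins Cplx1 (1.16 ± 0.09) and Cplx2 (-2.22 ± 0.17). The neurofilament genes Nefh, Nefm and Nefl rose by 1.47, 1.31 and 0.68.

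Calcium-binding proteins other than parvalbumin were mostly low: 12 of 17 fell and 2 rose (median -0.90). Calb1, calbindin, had 20.0 and 7.98 CPM in the chosen spots, against 133 and 131 CPM in all other spots, and Calb2, calretinin, 3.74 and 5.32 CPM, against 91.4 and 104 CPM. The rises were Hpcal1, a neuronal calcium sensor, at 102 and 77.1 CPM, against 25.5 and 26.7 CPM, and the glial S100b (0.73 ± 0.09).

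All 17 nuclear genes of the respiratory chain list rose, with a median of 0.50. Cox5a, a subunit of cytochrome c oxidase, had 1153 and 1099 CPM in the Six3-Pvalb-Gad1 spots, against 691 and 634 CPM in all other spots, and Ndufa4 2977 and 2493 CPM, against 1768 and 1516 CPM. The mitochondrially encoded share moved with them, at 17.5% and 19.2% of UMIs, against 13.2% and 15.3%. Its part in these results was not tested.

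Glial genes were uneven. All 13 myelin genes rose (median 0.68), among them Mobp (0.80 ± 0.09), Trf (0.78 ± 0.09) and Mbp (0.75 ± 0.09). The list summed to 17637 and 20056 CPM in the chosen spots, 8392 and 7637 in the relay thalamus spots, 9352 and 13273 in the other GABA-rich spots and 12342 and 12651 in all other spots. The part of these cells in the other results was not tested. Astrocyte genes gave 7 rises and 1 fall of 13 (median 0.34), led by the glycine transporter Slc6a9 (0.82 ± 0.16) and the water channel Aqp4 (0.74 ± 0.10), and precursor genes 4 rises and 1 fall of 8 (median 0.50), with the Gpr17 and Sox10 rises lost in DESeq2. Of 12 microglial genes edgeR called 0 in either direction, with 2 at an unadjusted p under 0.05 (29.1% of all genes tested) and 0 called by DESeq2 (median -0.14). Of 5 blood genes edgeR called 0, with 0 at an unadjusted p under 0.05 and 0 called by DESeq2 (median -0.17). Of 11 vessel genes, 2 rose (median 0.32), the endothelial Ly6c1 (0.43 ± 0.15) and the broadly expressed Bsg (0.35 ± 0.09), and each call was lost under 1 or more alternative settings.

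Markers of neighbouring fields were present at low levels. Excitatory relay thalamus genes gave 17 falls and 2 rises of 20 (median -1.31). Slc17a6, the vesicular glutamate transporter VGLUT2 of thalamus, had 35.0 and 45.2 CPM in the Six3-Pvalb-Gad1 spots, against 189 and 228 CPM in all other spots, and the transcription factor Tcf7l2 33.7 and 44.3 CPM, against 218 and 255 CPM. The rises were Ramp3, a receptor-modifying protein, at 364 and 333 CPM, against 156 and 179 CPM, and Adarb1, an RNA-editing enzyme, at 273 and 274 CPM, against 229.7 and 233 CPM. The list summed to 1274 and 1457 CPM in the chosen spots, 7818 and 8366 in the relay thalamus spots and 2451 and 2828 in all other spots, with 0 of 20 genes at 0 UMIs in the chosen spots.

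Zona incerta and hypothalamus markers gave 1 rise, Meis2, and 7 falls of 17 tested (median -2.31, or -1.54 with zeros at their bound), and Sim1, Calcr and Nkx2-1 were at 0 UMIs in the chosen spots. The list of 18 summed to 273 and 237 CPM in the chosen spots, against 2115 and 1952 CPM in all other spots. Cortical excitatory markers gave 0 rises and 10 falls of 12 (median -3.75, or -3.22 at the bound), with Fezf2 and Emx1 at 0 UMIs. Striatal and pallidal markers gave 0 rises and 6 falls of 12 (median -1.97, or -1.29 at the bound), with Drd1 at 0 UMIs. Choroid plexus, ependymal and meningeal markers gave 0 rises and 6 falls of 12 (median -0.63).

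The nearest comparison is with the excitatory thalamus that the reticular shell faces. The relay thalamus spots were the 60 spots per section, under the same row limit and more than 2 pitches from any chosen spot, with the highest mean score of Prkcd, Synpo2 and Ramp3. Those 3 genes and the rule genes were not tested here. Of 9264 genes tested, 1700 rose (18.4%) and 1643 fell (17.7%), with a median log2 fold change of -0.00.

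Gad2 had 618 and 583 CPM in the Six3-Pvalb-Gad1 spots, against 19.8 and 23.7 CPM in the relay thalamus spots, 30.6-fold, and Slc32a1 279.6 and 319 CPM, against 10.7 and 11.1 CPM. Sst was 54.7-fold higher here, beside 2.58-fold against all other spots, with 622 and 513 CPM, against 16.7 and 8.90 CPM. Spp1 had 3.05 and 2.97 CPM in the relay thalamus spots, a 123-fold difference. Trh had 2 UMIs in those spots, so that the ratio of chosen to relay thalamus spots was 129.9-fold (95% exact interval 35.6 to 1078). Cckar had 0 UMIs there, at least 20.1-fold lower than in the chosen spots. Of 6 genes of the neuropeptide list tested, 5 rose and 1, Cck, fell, and 15 of 16 reticular thalamus genes rose (median 3.81). These comparisons share the chosen spots, and the difference between them was not tested.

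Among the factors and channels, Meis2 had 154 and 142 CPM, against 1.52 and 2.23 CPM in the relay thalamus spots, and Isl1 78.6 and 39.9 CPM, against 0 and 2.23 CPM. Kcnip1 had 203 and 149.8 CPM, against 3.05 and 1.48 CPM, and Kcnj4, an inward rectifier, 38.7 and 34.6 CPM, against 1.52 and 0 CPM. Both values of the relay thalamus spots were under both values of the chosen spots for each of these genes. These genes were named for large rises, and the share of all genes tested that separate so is not given here. The T-type channels divided again, with Cacna1i at 4.63 ± 0.39 and Cacna1g at -2.81 ± 0.19 on the log2 scale and Cacna1g at 20.0 and 25.7 CPM, against 193 and 188 CPM. The Cacna1h rise of 3.29 ± 0.46 was not called by DESeq2.

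Receptor genes mostly fell: 9 of 14 GABA receptor genes, 10 of 15 ionotropic and 6 of 10 metabotropic glutamate receptor genes, while 1, 2 and 3 rose. Gabra4, a subunit of extrasynaptic GABA receptors in relay cells, had 44.9 and 43.4 CPM, against 448 and 503 CPM in the relay thalamus spots. Grin2b, an NMDA receptor subunit, had 20.0 and 45.2 CPM, against 224 and 296 CPM. The largest falls by the naming rule included A830036E02Rik, Wnt9b, a secreted Wnt ligand, Gbx2, a homeobox factor of relay thalamus, Stum and the transcription factor Foxp2. Foxp2 had 4.99 and 3.54 CPM, against 109.6 and 109 CPM, and Stum 4.99 and 7.98 CPM, against 199 and 176 CPM. All 17 relay list genes tested fell (median -2.89).

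Glial and blood genes also separated these sets. All 13 myelin genes rose (median 1.41), as did 9 of 13 astrocyte genes, with Gfap at 89.9 and 134 CPM, against 6.09 and 3.71 CPM. The 4 blood genes tested rose, Hbb-bs with 896 and 1360.2 CPM, against 333 and 662 CPM. Hbb-bs was uneven over the chosen spots, with medians of 170 and 190 CPM and highest spots of 7601 and 21902 CPM. Its sums thus lean on a few spots. The 4 complement genes tested rose, C1qa with 97.4 and 84.2 CPM, against 68.5 and 44.5 CPM, and C4b with 20.0 and 12.4 CPM, against 9.14 and 2.97 CPM, though DESeq2 called 0 of the 4. Tyrobp and Ctss were the 2 rises among 11 microglial genes, and DESeq2 called neither. The part of these cells in the neuronal results was not tested.

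The other GABA-rich spots are inhibitory tissue outside the arcs. They were the 60 spots per section, under the same row and distance limits, with the highest mean level of Gad2 and Slc32a1. Those genes and the rule genes were not tested. These spots lay mainly below the thalamus, and the list of zona incerta and hypothalamus markers summed to 273 and 237 CPM in the Six3-Pvalb-Gad1 spots, against 4733 and 3306 CPM in the other GABA-rich spots. Gad2 had 618 and 583 CPM in the chosen spots, against 657 and 696 CPM, and Slc32a1 279.6 and 319 CPM, against 361 and 403 CPM. Of 8551 genes tested, 823 rose (9.62%) and 824 fell (9.64%).

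Spp1 again rose, with 443 and 275 CPM in the Six3-Pvalb-Gad1 spots, against 13.2 and 27.4 CPM in the other GABA-rich spots, 15.6-fold. Cckar and Cox8b, a muscle-type cytochrome oxidase subunit, had 0 UMIs in the other GABA-rich spots, at least 12.6-fold and 8.91-fold lower than in the chosen spots. Pln had 76.1 and 74.4 CPM, against 0 and 2.49 CPM, Sema3e, a secreted guidance cue, 74.9 and 70.9 CPM, against 4.41 and 1.24 CPM, and Cplx3, a complexin of ribbon and subplate synapses, 98.6 and 86.0 CPM, against 0 and 4.97 CPM. The sets did not overlap for any of these 6 genes. They were named for large rises, and the share of all genes tested without overlap is not given here. Sst was close: 622 and 513 CPM, against 478 and 377 CPM, 0.46 ± 0.13, a call lost in DESeq2, without the mouse term, in the 30 top-scoring spots and without the row limit.

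Of 30 potassium channel genes tested against the other GABA-rich spots, 16 rose and 7 fell (median 0.79, 8 called by DESeq2). In the same comparison 12 of 13 myelin genes rose (median 0.80, 7 called by DESeq2), as did 11 of 17 respiratory chain genes (median 0.41, 6 called by DESeq2), and their part in the neuronal results was not tested. Kcnc1 had 377 and 392 CPM, against 115 and 188 CPM in the other GABA-rich spots. Scn4b had 112 and 121 CPM, against 11.02 and 23.6 CPM, and Hapln4, the matrix link protein, 209.7 and 154 CPM, against 55.1 and 46.0 CPM. Cacna1i rose by 1.96 ± 0.31. Cacna1h rose by 1.64 ± 0.42, lost in DESeq2, and Cacna1g, -0.42 ± 0.34, did not pass the test. Gabra3 did not pass, with 43.7 and 44.3 CPM, against 19.8 and 46.0 CPM.

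Of the 15 reticular thalamus genes tested against the other GABA-rich spots, 11 rose and 1, Ecel1, fell (median 1.56, 7 called by DESeq2). Ecel1 had 7.49 and 17.7 CPM, against 37.5 and 39.8 CPM, a call lost in DESeq2 and with 30 comparison spots. Esrrg had 119.8 and 161 CPM, against 15.4 and 28.6 CPM. Hypothalamic peptides fell: Pmch had 36.2 and 29.2 CPM, against 2523 and 2126 CPM, Hcrt 17.5 and 4.43 CPM, against 1221 and 426 CPM, and Nts, neurotensin, 3.74 and 1.77 CPM, against 324 and 143 CPM. Glra3, a glycine receptor subunit, had 0 UMIs in the chosen spots, against 13.2 and 28.6 CPM, at least 14.8-fold lower, a call lost in DESeq2. Cartpt and Tac2 completed the 6 largest falls. Of the 15 relay thalamus genes tested here, 7 rose and 2 fell (median 0.56), and the list summed to 1274 and 1457 CPM in the chosen spots, against 544 and 645 CPM.

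Levels of the marker genes dropped within 1 or 2 pitches of the chosen spots. Six3 stood at 421 and 421 CPM in those spots, 142 and 92.4 CPM at 1 pitch, 32.8 and 31.8 at 2 pitches and 14.3 and 25.9 at 3. Spp1, which the rule did not use, stood at 443 and 275 CPM in the chosen spots, 104 and 53.8 CPM at 1 pitch, 27.9 and 19.8 at 2 pitches and 16.6 and 13.8 at 3. Of its level in the chosen spots, 23.4% and 19.6% remained at 1 pitch. Trh kept 65.1% and 39.5% and Sst 61.3% and 58.4%. Beyond 10 pitches Sst was at 261 and 304 CPM, while Spp1 was at 9.85 and 6.75 CPM.

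Some genes of relay thalamus had the opposite profile, and others did not. Slc17a6 stood at 35.0 and 45.2 CPM in the chosen spots, 122 and 143 at 1 pitch and 206 and 235 at 3 pitches. Tcf7l2, a transcription factor of relay thalamus, stood at 33.7 and 44.3 CPM in the chosen spots, 119 and 138 at 1 pitch and 209 and 213 at 3 pitches. Ramp3, a receptor partner protein also on the relay list, stood at 364 and 333 CPM in the chosen spots, with lower levels of 239 and 239.5 at 1 pitch, 198 and 225 at 3 pitches and 123 and 146 beyond 10. Mbp, the myelin basic protein gene, peaked beside the arcs, with 7222 and 7669.6 CPM in the chosen spots, 9415 and 11532 at 1 pitch, 10443 and 11251 at 2 pitches and 3806 and 3858 beyond 10. The ring at 1 pitch held 79 and 76 spots and was not tested, because the rule sets its boundary.

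**Figure D4:**
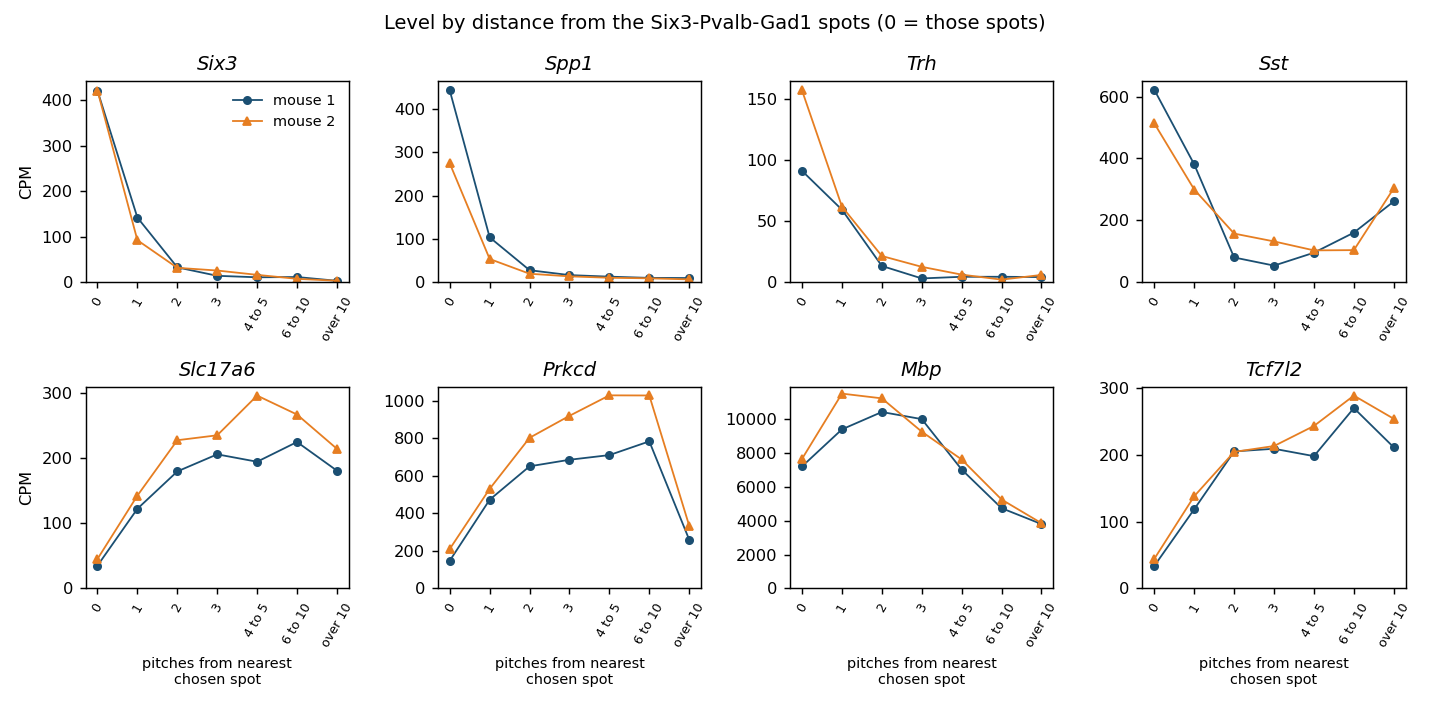
Level in CPM of 8 genes by distance in spot pitches from the nearest Six3-Pvalb-Gad1 spot, where 0 stands for those spots, with 1 line per mouse. Six3, Spp1 and Trh fall within 2 pitches, and Slc17a6, Prkcd and Tcf7l2 are higher at 1 to 3 pitches than in the chosen spots. Mbp peaks at 2 pitches in mouse 1 and at 1 pitch in mouse 2.

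The chosen spots were not alike. Spp1 lay between 0 and 1189.7 CPM in mouse 1 (median 398) and between 0 and 909 CPM in mouse 2 (median 223), over 60 spots each. Trh lay between 0 and 599 CPM in mouse 1 (median 72.5) and between 0 and 533 CPM in mouse 2 (median 135), and Sst between 77.2 and 1275 CPM in mouse 1 (median 532) and between 43.4 and 2097 CPM in mouse 2 (median 425). Among the 60 spots of each mouse, 59 and 55 had a UMI of Spp1, against 2 and 4 of 60 relay thalamus spots and 3 and 9 of 60 other GABA-rich spots. Trh was seen in 34 and 55 chosen spots, against 2 and 0 relay thalamus spots and 2 and 7 other GABA-rich spots. Isl1 was seen in 35 and 33 chosen spots, against 0 and 3 relay thalamus spots and 4 and 8 other GABA-rich spots. Part of the spread is counting error. The SD over chosen spots, as a percentage of the mean, was 63.0% and 72.4% for Spp1, against 42.6% and 45.4% from counting alone. For Sst it was 53.9% and 71.3%, against 36.0% and 33.2%, and for Trh 128% and 77.5%, against 93.9% and 60.1%. Isl1, at 115% and 110%, against 101% and 119%, spread about as much as counting alone would give. Ecel1 was seen in 6 and 15 chosen spots, against 1 and 1 relay thalamus spots and 12 and 22 other GABA-rich spots. The median depth was 13011.5 and 18359 UMIs in the chosen spots, 10914 and 22285.5 in the relay thalamus spots and 7026 and 11987.5 in the other GABA-rich spots. Ecel1 was thus seen in fewer chosen spots than other GABA-rich spots, at a higher depth.

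Spp1 gave negative rank correlations with Trh and Sst from spot to spot. Over the 60 spots of a mouse, Spearman's rho between Spp1 and Trh was -0.41 and -0.33, between Spp1 and Sst -0.31 and -0.22 and between Sst and Trh 0.32 and 0.30. The myelin gene Mbp gave a rho of -0.47 and -0.70 with Pvalb and -0.37 and -0.56 with Spp1, both negative, but 0.15 and 0.41 with Sst and 0.20 and 0.02 with Trh. Pvalb with Gad1, both used to choose the spots, gave 0.42 and 0.69. These are descriptions over spots that share a section, a library and a total, within which shares of UMIs compete, and neighbouring spots are not independent.

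Level also varied along the arc. With the spots of each mouse split into upper, middle and lower bands by array row, Meis2 stood at 80.0 and 67.6 CPM in the upper band, 169 and 174 in the middle band and 225 and 187 in the lower band. Sst stood at 535 and 354 CPM in the upper band, 658 and 482 in the middle band and 684 and 737 in the lower band. Mbp stood at 6163 and 6470.1 CPM in the upper band, 6979.7 and 7106 in the middle band and 8802 and 9766 in the lower band. All 3 were highest in the lower band of both mice. Spp1 was lowest there, at 525 and 304 CPM in the upper band, 443 and 315 in the middle band and 344 and 190.3 in the lower band. Six3, a rule gene, was highest in the upper band, at 559.7 and 466 CPM in the upper band, 353 and 429 in the middle band and 331 and 359 in the lower band. Trh differed between the mice, at 55.6 and 172 CPM in the upper band, 93.5 and 131 in the middle band and 132 and 172 in the lower band. Bands held 17 to 22 spots and were not tested.

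**Figure D5:**
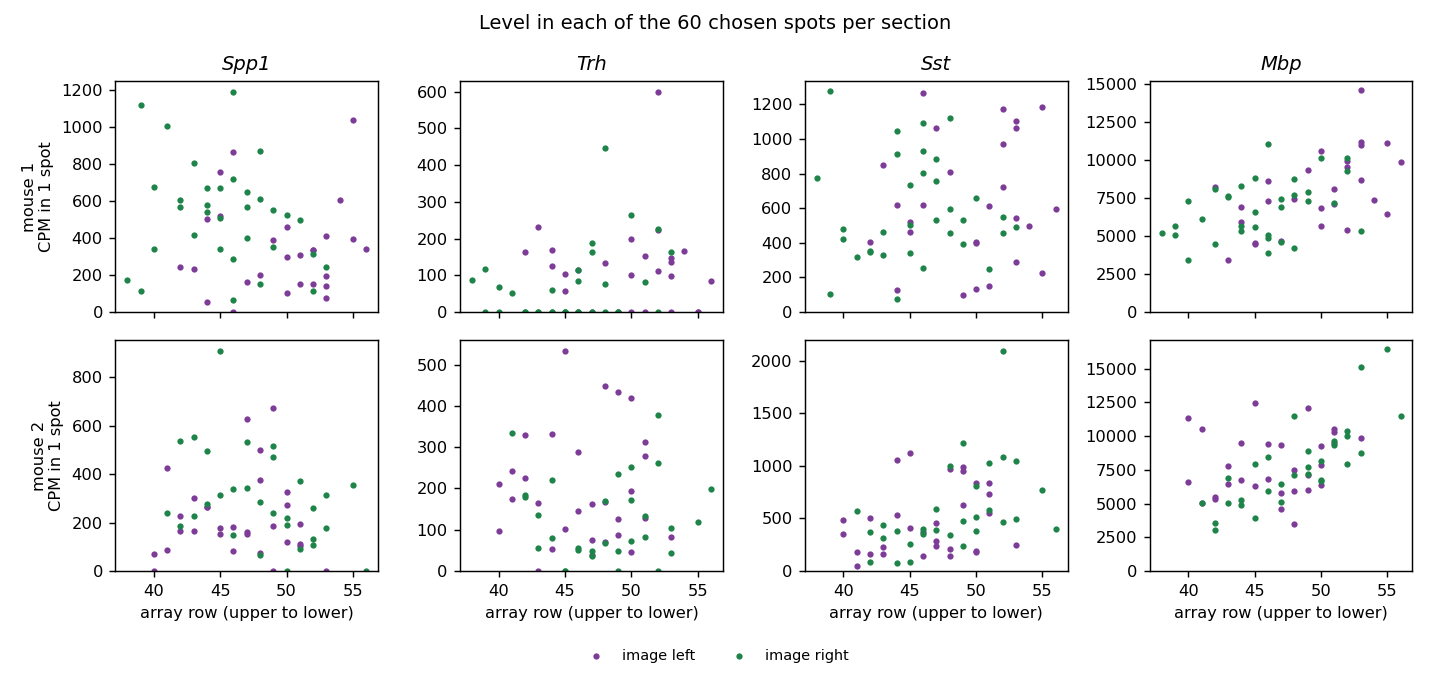
Level in CPM of Spp1, Trh, Sst and Mbp in each of the 60 Six3-Pvalb-Gad1 spots per section by array row, with image-left spots and image-right spots in different colours and mouse 1 above mouse 2. Mbp climbs toward lower rows of the section in both mice, and 1 and 5 of the 60 spots have no Spp1 UMI.

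Over all used spots, the genes whose level followed the mean score of Six3, Pvalb and Gad1 most closely were Spp1, Lgi2, Syt2, Ubash3b and Esrrg. Their mean Pearson correlation over both sections was 0.46, 0.44, 0.37, 0.36 and 0.34 across 3712 and 3548 spots. Ubash3b, a tyrosine phosphatase, had 207 and 189 CPM in the chosen spots, against 19.0 and 18.8 CPM in all other spots. The score chose the spots, so the order is a description.

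Immediate early genes, which neurons switch on after activity, gave more falls than rises. Of 18 tested, 1 rose (5.56%) and 6 fell (33.3%), beside 9.12% and 10.9% of all genes tested. Their median was -0.35 (-0.19 with Egr2, at 0 UMIs, at its bound). Arc, a cytoskeletal protein of recently active synapses, had 72.4 and 54.9 CPM in the Six3-Pvalb-Gad1 spots, against 14.4 and 13.4 CPM in all other spots, 4.87-fold, and 3.05 and 5.93 CPM in the relay thalamus spots and 4.41 and 6.22 CPM in the other GABA-rich spots. Egr1, with 6.24 and 11.5 CPM, against 81.6 and 98.6 CPM, fell by 3.18 on the log2 scale. Fos had 13.7 and 10.6 CPM, against 12.1 and 12.5 CPM, and did not pass edgeR's quasi-likelihood test (adjusted p = 0.922). Arc was seen in 31 and 36 of 60 chosen spots, against 2 and 8 relay thalamus spots and 2 and 5 other GABA-rich spots.

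Of the complement and immunoglobulin transcripts, which the study's title names, 9 genes were tested (median -0.21). Among them 1 rose (11.1%) and 2 fell (22.2%), beside 9.12% and 10.9% of all genes tested. C1qa, a chain of the complement protein C1q, had 97.4 and 84.2 CPM in the Six3-Pvalb-Gad1 spots, against 82.8 and 69.9 CPM in all other spots. Its rise of 0.37 ± 0.13 (edgeR adjusted p = 0.0249) was lost under 5 alternative settings. C1qb had 98.6 and 65.6 CPM, against 83.2 and 73.3 CPM, and C1qc 67.4 and 66.5 CPM, against 67.6 and 61.3 CPM, and neither passed. Igkc, the kappa light chain, had 9.99 and 1.77 CPM, against 35.0 and 13.7 CPM, and fell by 2.02 on the log2 scale, a call lost without the mouse term. Ighm had 9.99 and 5.32 CPM, against 28.0 and 24.1 CPM.

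The image-left and image-right arcs were compared within the chosen spots, since the labels speak of a side that received the injection. Among 6550 genes tested, 0 passed edgeR's adjusted threshold and 296 (4.52%) had an unadjusted p under 0.05, and DESeq2 also called 0. Arc had 98.2 and 44.0 CPM on the image-left, against 50.6 and 65.2 CPM on the image-right, a log2 difference of 0.16 ± 0.31, and the mice went in opposite directions. C1qa had 112 and 69.6 CPM, against 85.2 and 97.8 CPM, and C1qb 90.0 and 64.1 CPM, against 106 and 66.9 CPM. C1qc had 87.3 and 69.6 CPM, against 50.6 and 63.5 CPM. C1qc was higher on the image-left in both mice and C1qb lower in both, and neither passed the test (edgeR adjusted p = 0.979 for C1qc and 0.990 for C1qb). Fos, Egr1, Npas4 and Igkc were too low on the sides to be tested. The arcs were not matched in height, with median array rows of 50 and 47 on the image-left, against 46 and 48.5 on the image-right.

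The side difference in the chosen spots was also set against that in all other spots. Of 13245 genes, 3 (0.0227%) passed the interaction test in edgeR, Spp1, Pcp4l1 and Pmch, and 619 (4.67%) had an unadjusted p under 0.05. Each of the 3 was lower on the image-left than on the image-right of the chosen spots in both mice. Spp1 had 343.6 and 229 CPM on the image-left, against 527 and 317 CPM on the image-right. The number of such genes was 0 without the mouse term and 0 in the 100 top-scoring spots, both chosen after seeing the data.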

How the data were processed

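Spatial RNA was measured with the 10x Visium assay in 1 section from each of 2 mice, after 12 min of permeabilisation per the labels. The deposited matrices hold raw UMI counts per gene and spot under tissue, which per the file headers came from Space Ranger 1.3.1, with mm10 named in the submitters' processing notes. No normalization by the authors is recorded in them, and other settings are not stated. Spots under 500 UMIs were left out, which kept 3712 of 3715 and 3548 of 3549 spots with 30671753 and 55315952 UMIs. A spot covers several cells, so no doublet caller was run.

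Counts of 32285 genes were summed per mouse and spot set, giving 4 libraries per comparison, and tested with edgeR 4.0.16 (R 4.3.3): filterByExpr, TMM, a mouse term, the quasi-likelihood test and Benjamini-Hochberg adjustment over all genes tested at 0.05. The mouse number pairs sets because both come from 1 section. SEs are the log2 fold change over the square root of F, and estimated prior degrees of freedom were unbounded in the comparisons with other spots. The 2 mice are the replicates and differ in genotype label. The interaction test of side and spot set instead used 8 libraries with 3 residual degrees of freedom. Its left and right libraries come from the same sections and are not further replicates. DESeq2 1.42.0 and other settings were alternatives. The steps were tested on simulated data. Sets were built with Python 3.11.15, numpy 2.4.6 and pandas 2.3.3. Exact intervals cover counting error only, at 95%, and came from scipy 1.17.1.

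The spots, lists and tests were chosen with earlier results of these data known. Genes named by rule were the 10 largest rises and falls against all other spots (6 in the other comparisons) with a mean of at least 20 CPM in the higher set and the same direction in both mice, up to 3 per list, and a short set always shown. Further list members were named after their values were seen. Some genes named by rule or listed are not reported here.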

Additional observations from a re-analysis of the deposited data

Results flagged for a closer look

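Between sides, 3 of 13245 genes (0.0227%) had an image-left minus image-right difference in the Six3-Pvalb-Gad1 spots that departed from the same difference in all other spots, by the interaction term of edgeR's quasi-likelihood fit, and 619 (4.67%) had an unadjusted p under 0.05. For Spp1 the difference of log2 differences was -0.94 ± 0.18 SE (adjusted p = 0.00612 in edgeR). Spp1 had 343.6 and 229 CPM on the image-left of the chosen spots, against 527 and 317 CPM on their image-right. In all other spots it had 14.0 and 10.5 CPM on the image-left, against 13.1 and 6.83 CPM on the image-right. For Pcp4l1, a small relative of the calmodulin regulator Pcp4, it was -0.52 ± 0.10 (edgeR adjusted p = 0.0114), with 875 and 871 CPM on the image-left of the chosen spots, against 1167 and 1005 CPM on their image-right. In all other spots Pcp4l1 had 249 and 253 CPM on the image-left, against 206 and 233 CPM on the image-right. For Pmch it was -2.39 ± 0.51 (edgeR adjusted p = 0.0252), with 16.4 and 7.33 CPM on the image-left of the chosen spots, against 52.9 and 49.8 CPM on their image-right. The image-left of the chosen spots held 366716 and 545607 UMIs in total, and the image-right 434424 and 582868. These Pmch levels in the chosen spots thus rest on few UMIs. In all other spots Pmch had 1313 and 1882 CPM on the image-left, against 1555 and 1296 CPM on the image-right. Within the chosen spots alone none of these 3 genes passed the test between sides. The median array row was 50 and 47 on the image-left of the chosen spots, against 46 and 48.5 on the image-right, and the part of height in these differences was not tested.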

How the results depend on the processing

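The named genes kept their direction under nearly all settings, and the number of calls moved most with the tool and with the number of spots. Of the named genes past the threshold, 73 of 101 against all other spots, 50 of 67 against relay thalamus spots and 40 of 69 against other GABA-rich spots stayed past it under each alternative. DESeq2 called 618 genes higher and 578 lower against all other spots, 527 and 482 against relay thalamus spots and 143 and 200 against other GABA-rich spots. All of its 1196, 1009 and 343 calls were among those of edgeR, and 2923 adjusted values against all other spots were missing. With the 30 top-scoring spots, 892 genes were higher against all other spots, and 487 were higher and 481 lower against other GABA-rich spots. Between sides, the count higher on the image-left was 2 with no filter, 2 with 30 spots, 3 with 100 spots and 1 with mouse 2 thinned. The count lower was 1 with RLE size factors, 4 with no filter, 3 with 30 spots, 3 with 100 spots and 1 with thinning. Side differences that departed from all other spots numbered 0 without the replicate block, 0 with 100 spots and 1 with thinning, all chosen after seeing the data.

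Turned signs were Ecel1 against all other spots (-0.83, 30 spots), Cacna1g against other GABA-rich spots (0.14, 100 spots), Ttr against other GABA-rich spots (-0.45 without replicate 2 and 1.65 without replicate 1), Arc between sides (-0.076, 30 spots) and C1qa between sides (0.042, mouse 2 thinned). The cause was not tested. Without the replicate block, 924 genes were higher and 1170 lower against all other spots, 1409 and 1361 against relay thalamus spots and 583 and 606 against other GABA-rich spots, and the 3 rule genes held. Leaving out a mouse gave values with no test, since no residual degrees of freedom remained. Genes with few UMIs in the 60 spots, among them Fos, Acan and Ecel1, could show large differences only.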
